A study of Homo sapiens with 27 samples.

Results

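The interleukin 1 (IL-1) family is described here by 10 genes, taken as the rows of the count table whose Entrez ID maps to a fixed list of symbols, out of 24566 rows in all. The genes were set by name, in a list drawn up with earlier results of these data known, and all 10 had a row. They comprise 5 ligands of the family (IL1A, IL1B, IL18, IL33 and IL36G), the secreted and intracellular receptor antagonist IL1RN, the signalling receptors IL1R1 and IL1RL1, the shared co-receptor IL1RAP and the decoy receptor IL1R2. Levels were measured by RNA sequencing in 27 libraries, which form 9 groups of 3 biological replicates of established human cell lines, with 1 line for each tumour type.

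A431 is an epidermoid carcinoma line and MDA-MB-231 a breast adenocarcinoma line, and every group was collected at 48 h. The 5 A431 groups were untreated cells, a vehicle control, Compound Kushen Injection (CKI, a mixture of plant extracts) at 1 mg/ml, the drug doxorubicin, and CKI together with doxorubicin. The 4 MDA-MB-231 groups were untreated cells, CKI at 1 mg/ml, 5-fluorouracil (5-FU) at 10 μg/ml, and CKI plus 5-FU. The doses of doxorubicin given in the sample descriptions are not assigned to groups and what the vehicle contained is not described, so neither is stated here. MDA-MB-231 had no vehicle control, so in that line an effect of CKI cannot be told apart from one of its vehicle. In A431 no group held the vehicle together with doxorubicin, so the same limit applies to CKI added to doxorubicin.

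IL-1α and IL-1β, the products of IL1A and IL1B, bind IL1R1, which then recruits IL1RAP. The complex signals through MYD88, the IRAK kinases and TRAF6 to NF-kB and to the MAP kinases that act on AP-1. IL1RN occupies IL1R1 without signalling, IL1R2 binds IL-1 but lacks a signalling tail, and IL1RL1 (ST2) is the receptor for IL-33. IL-1β and IL-18 are made as precursors that CASP1 cleaves in inflammasomes, whereas keratinocytes and tumours derived from squamous epithelium store IL-1α inside the cell. The measurements here are of mRNA, so they say nothing of cleavage or release, and a gene-level count does not separate the soluble from the membrane form of IL1RL1 or the secreted from the intracellular form of IL1RN.

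Of the 10 genes, 7 lie on chromosome 2 as 2 clusters. In GRCh37, the build of the alignment, the receptor cluster holds IL1R2 (102608422 to 102645006), IL1R1 (102681004 to 102796334) and IL1RL1 (102927962 to 102968497), all on the plus strand. The ligand cluster holds IL1A (113531502 to 113542070) and IL1B (113587328 to 113594393) on the minus strand, and IL36G (113730780 to 113743235) and IL1RN (113856892 to 113891593) on the plus strand. IL18 lies on chromosome 11 (112013976 to 112034819, minus strand), IL33 on chromosome 9 (6215786 to 6257983, plus strand) and IL1RAP on chromosome 3 (190231840 to 190377539, plus strand). The kit that the sample labels name, NEBNext Ultra RNA, does not mark strand, and how counting treated strand is not given in the sources used here. Exons of IL18R1 cover 3.1% of the canonical exons of IL1RL1, and an antisense gene covers 0.2% of those of IL1R1, so reads there cannot be assigned to one gene.

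The upstream sequences below are shown because the results turn on groups of genes that changed together: IL1A, IL1B and IL36G under the vehicle control, and the receptors IL1RL1 and IL1R2 under doxorubicin and CKI. Each is the 250 bases before the first start site that RefSeq lists for the gene (build GRCh38.p14), 5′ to 3′ on the gene's own strand, with motif matches in capitals. Windows for 9 of the 10 genes were matched, and IL18 was not. The motifs searched on both strands were AP-1 (TGANTCA), C/EBP (TTNNGNAA), the TATA box (TATAAA) and the NF-kB consensus. No 2 matches overlapped in the windows shown.
IL1A, chr2:112784494-112784743, minus strand: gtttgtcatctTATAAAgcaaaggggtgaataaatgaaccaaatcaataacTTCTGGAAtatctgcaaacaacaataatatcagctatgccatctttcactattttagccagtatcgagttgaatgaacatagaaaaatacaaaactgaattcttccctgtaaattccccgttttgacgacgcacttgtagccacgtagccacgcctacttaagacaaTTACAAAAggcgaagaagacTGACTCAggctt
IL1B, chr2:112836780-112837029, minus strand: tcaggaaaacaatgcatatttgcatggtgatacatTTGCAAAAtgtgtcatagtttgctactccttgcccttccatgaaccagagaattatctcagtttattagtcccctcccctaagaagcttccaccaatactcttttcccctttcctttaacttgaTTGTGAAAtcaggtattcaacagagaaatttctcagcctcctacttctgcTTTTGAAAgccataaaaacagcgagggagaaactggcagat
IL36G, chr2:112977756-112978005, plus strand: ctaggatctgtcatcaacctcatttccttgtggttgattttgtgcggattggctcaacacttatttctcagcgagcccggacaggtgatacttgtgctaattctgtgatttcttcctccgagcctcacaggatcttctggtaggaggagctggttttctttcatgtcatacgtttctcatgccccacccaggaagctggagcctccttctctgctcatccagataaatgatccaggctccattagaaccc
IL1RL1, chr2:102337007-102337256, plus strand: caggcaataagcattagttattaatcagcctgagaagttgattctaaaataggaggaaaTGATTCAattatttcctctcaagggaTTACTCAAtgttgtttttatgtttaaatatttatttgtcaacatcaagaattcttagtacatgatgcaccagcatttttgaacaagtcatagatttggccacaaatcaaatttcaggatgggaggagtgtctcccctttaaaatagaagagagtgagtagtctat
IL1R2, chr2:101998711-101998960, plus strand: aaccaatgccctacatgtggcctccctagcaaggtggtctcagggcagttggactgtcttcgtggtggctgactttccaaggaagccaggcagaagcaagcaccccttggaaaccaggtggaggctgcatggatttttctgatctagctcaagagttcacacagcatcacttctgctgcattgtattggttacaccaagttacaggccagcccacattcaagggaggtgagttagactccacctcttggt

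An AP-1 match begins 12 bases before the start of IL1A and another 191 bases before that of IL1RL1. C/EBP matches number 3 in IL1B, 2 in IL1A and 1 in IL1RL1. The TATAAA match of IL1A begins 239 bases before the start. None of the 4 motifs was found in the windows of IL36G and IL1R2, and no NF-kB match was found in any of the 9 windows. Over all 35116 promoter windows of the same length, 6.57% hold the AP-1 motif, 33.2% the C/EBP motif, 10.7% the TATA motif and 5.21% the NF-kB consensus, so these matches are a description of the sequence and identify no bound factor.

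The A431 libraries held 17757206 to 21756536 counts each, and those of MDA-MB-231 held 19871048 to 22809339. Squamous epithelial markers (KRT5, KRT14, KRT6A, DSG3 and SFN) summed to 5340 to 7880 CPM (counts scaled to a library of fixed size) in A431 and 76.7 to 262 in MDA-MB-231, and mesenchymal-like breast line markers (VIM, ZEB1, AXL, FN1 and SPARC) summed to 285 to 1280 and 1890 to 3970 CPM. Luminal breast markers (ESR1, PGR and GATA3) summed to 20.7 to 50.3 CPM in A431 and 11.2 to 23.4 in MDA-MB-231. The 7 leukocyte markers summed to 5.02 to 20.4 CPM in A431 and 8.16 to 19.6 in MDA-MB-231. Of the 7, 3 averaged above 1 CPM over the A431 libraries and 2 over those of MDA-MB-231. PTPRC, the common leukocyte antigen, was at 0 in untreated, vehicle and CKI A431 cells and at 1.32 ± 0.196 CPM with doxorubicin. SPI1 averaged at most 0.412 CPM in any group. In MDA-MB-231, the first untreated replicate stood apart: the chi-square per degree of freedom of its counts was 74.9 and 86.5 against the other untreated libraries, which gave 2.73 between themselves, while pairs in the other groups, the A431 vehicle control left aside, gave at most 5.7. The vehicle pairs gave 11.4, 29.9 and 10.5, and the first vehicle replicate had the highest IL1A and IL36G of that group.

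Levels below are CPM after TMM scaling over all 27 libraries, with the mean ± SD of n = 3 libraries. Differences are log2 fold changes from edgeR's quasi-likelihood test over all genes of a line, with Benjamini-Hochberg adjusted p-values. A gene is said to have risen or fallen where the adjusted p was below 0.05 and the fold change exceeded 1 on the log2 scale. In bulk RNA, fewer cells of one kind and less RNA per cell cannot be told apart.

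In untreated A431 cells the antagonist gene IL1RN and the ligand gene IL1B were at similar levels, with IL1A somewhat lower. Divided by transcript length, IL1RN stood at 111 ± 6.7 CPM per kb, IL1B at 108 ± 5.52, IL1A at 91.4 ± 3.48, IL18 at 42.9 ± 2.54 and IL36G at 19 ± 1.24. IL1RN and IL1B did not differ beyond their spread, and the other neighbours in that order did. The receptors were lower on the same scale, with IL1RAP at 6.94 ± 0.22, IL1R1 at 4.3 ± 0.176, IL1RL1 at 0.523 ± 0.0963 and IL1R2 at 0.468 ± 0.205 CPM per kb, the last pair overlapping. IL33 was at 0.0809 ± 0.0648 CPM per kb, from 11 reads over the 3 libraries.

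Untreated MDA-MB-231 cells had a different order per length. IL18 stood at 11.8 ± 1.64, IL1RAP at 10.5 ± 2.05, IL1B at 9.02 ± 1.74 and IL1R1 at 5.52 ± 0.591 CPM per kb, with IL18, IL1RAP and IL1B within their spreads of each other. IL1A followed at 1.46 ± 0.27, IL1R2 at 0.0995 ± 0.0274 and IL1RN at 0.0198 ± 0.0172 CPM per kb. IL36G and IL1RL1 had no read in any of these 3 libraries, which allows up to 0.157, 0.138 and 0.148 CPM in them.

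Between the untreated lines, 7 of the 9 tested genes were higher in A431 and none was lower, beside 42.9% of all tested genes that passed in either direction. IL1A was 6.01 ± 0.12 (SE) higher on the log2 scale (adjusted p = 6.3e-14 in edgeR), IL1B 3.63, IL18 1.91 and IL1R2 2.22. For IL1RN, 9646 reads in A431 stood against 2 in MDA-MB-231, a ratio of 5780 with a 95% counting interval of 1600 to 47700. IL36G was at least 469-fold higher and IL1RL1 at least 21.2-fold higher in A431, taking 3 reads over the MDA-MB-231 group as the floor. The receptor subunits IL1R1 and IL1RAP went the other way, with log2 differences of -0.31 and -0.54 that did not reach the fold threshold (adjusted p = 0.0079 and 0.00097 in edgeR). IL33 was not tested, having 11 reads in A431 and 1 in MDA-MB-231.

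**Figure D1:**
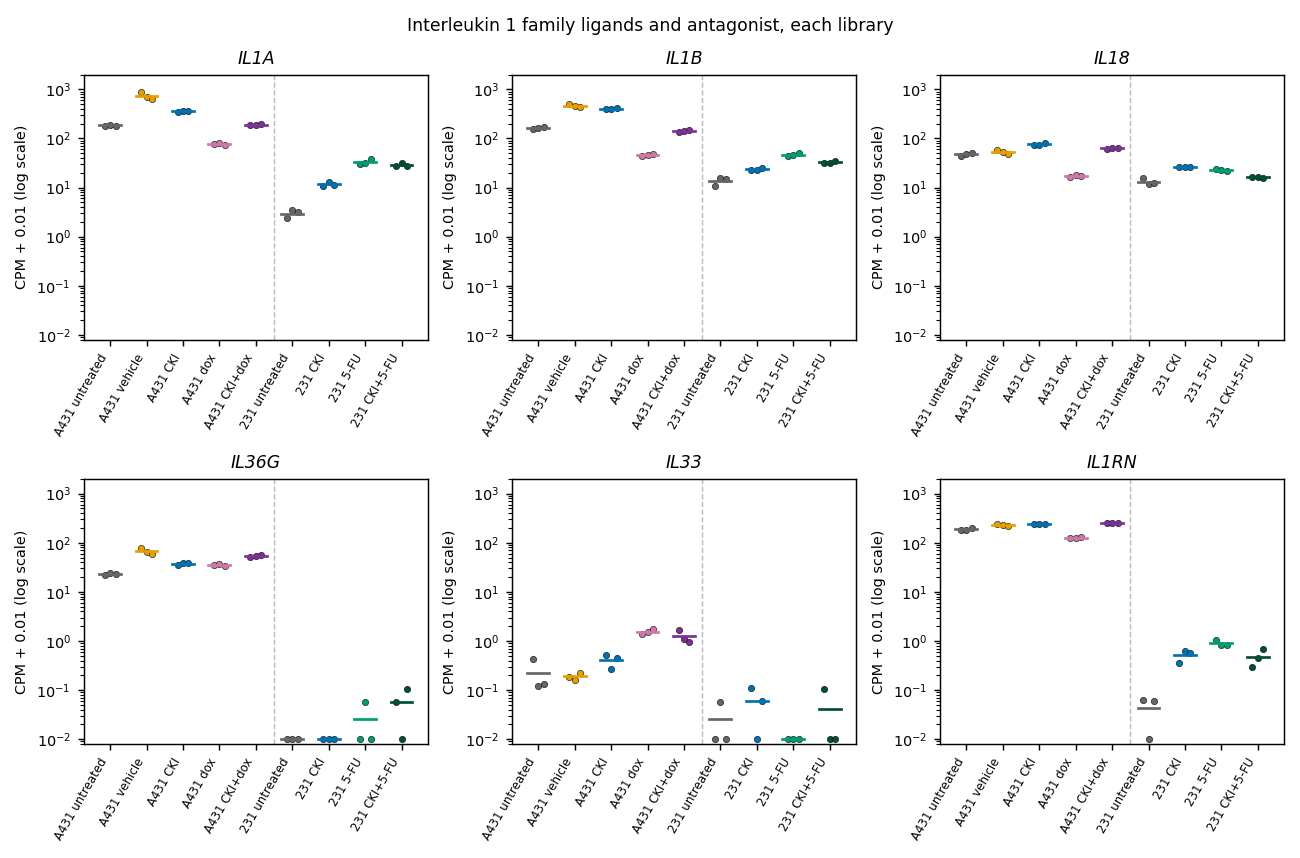
CPM of the 5 ligands and of IL1RN in each of the 27 libraries, on a log axis after adding 0.01 so that zeros can be drawn. Points are libraries, bars are group means, and 231 stands for MDA-MB-231. IL1A and IL1B were highest in the A431 vehicle control and lowest among A431 groups with doxorubicin.

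The A431 vehicle control had the highest levels of IL1A, IL1B and IL36G of all 9 groups, so CKI was compared both with untreated cells and with the vehicle. Against untreated cells the vehicle raised 4 of the 10 genes and lowered none, where 2.54% of all tested genes passed in either direction. These were the 3 ligands and the IL-33 receptor gene IL1RL1. The median log2 difference of the 10 genes was 0.67, and 0 over all 15881 tested genes.

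IL1A was at 880, 700 and 640 CPM in the 3 vehicle libraries, against 180, 192 and 181 in untreated cells. The CKI libraries held 347, 359 and 359 CPM. The 3 groups did not overlap, and CKI lay between the other two. IL1A rose by 2.02 ± 0.082 (SE) with the vehicle (edgeR adjusted p = 8.6e-15). The CKI libraries were 0.85 ± 0.08 above untreated cells, short of the fold threshold (edgeR adjusted p = 1.9e-09), and against the vehicle IL1A fell by 1.16 with CKI (SE 0.079, edgeR adjusted p = 9.8e-12). Without the first vehicle replicate these were 1.87 for the vehicle against untreated cells and -1.02 for CKI against the vehicle, and both still passed. With offsets for the GC content and length of each gene the difference between CKI and the vehicle was -0.87 and no longer passed the fold threshold.

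IL1B was at 497, 454 and 446 CPM with the vehicle, 391, 401 and 420 with CKI and 154, 165 and 170 in untreated cells. The groups were again separate, but the vehicle and CKI libraries lay close together. IL1B rose by 1.53 ± 0.061 with the vehicle (edgeR adjusted p = 7.5e-15) and by 1.22 ± 0.061 with CKI (adjusted p = 3.3e-14), both against untreated cells. Between CKI and the vehicle the difference was -0.31 (95% interval -0.43 to -0.18, edgeR adjusted p = 8.7e-05), and it shrank to -0.06 with the GC content and length offsets (adjusted p = 0.26).

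IL36G, an epidermal cytokine that signals through IL1RL2 and IL1RAP, was at 79.6, 64.5 and 57.8 CPM with the vehicle, 35.2, 38.5 and 39.5 with CKI, and 21.7, 24.6 and 22.6 in untreated cells. It rose by 1.56 ± 0.094 with the vehicle (edgeR adjusted p = 1.9e-11). The CKI libraries were 0.62 above untreated cells on the log2 scale and differed by -0.94 from the vehicle, without overlap in either case, and neither difference passed the fold threshold. Without the third vehicle replicate the difference from the vehicle was -1.04 and passed, and without the first it was -0.8. IL18 did not share this pattern: its log2 difference between the vehicle and untreated cells was 0.17 (edgeR adjusted p = 0.074), and the CKI libraries, at 73.4, 75 and 82.1 CPM, exceeded both controls, by 0.59 over untreated cells and 0.42 over the vehicle on the log2 scale, without reaching the fold threshold.

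IL1RN was at 242, 227 and 222 CPM with the vehicle and 237, 238 and 244 with CKI, groups that overlapped, and at 182, 183 and 202 in untreated cells. The log2 difference between CKI and the vehicle was -0.04 (95% interval -0.16 to 0.07, edgeR adjusted p = 0.51), and its sign depended on the processing. Against untreated cells IL1RN was 0.3 higher with the vehicle and 0.25 higher with CKI, both short of the fold threshold. IL33 had 2 to 10 reads in each of these libraries, with log2 differences of 0.81 for CKI and -0.24 for the vehicle against untreated cells and 1.05 for CKI against the vehicle (edgeR adjusted p = 0.19, 0.81 and 0.097). The first of these was 1.66 and passed without the first untreated replicate (adjusted p = 0.031), and the last was 1.26 and passed with the GC content and length offsets (adjusted p = 0.047).

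Across genes, the fold change of the vehicle against untreated cells was related to GC content (Spearman's rho = -0.58) and transcript length (rho = 0.31) over the tested genes, which are not independent replicates. For CKI against untreated cells the values were -0.1 and 0.25. With offsets for both properties, IL1A stood 1.78 on the log2 scale, IL1B 1.47, IL36G 1.47 and IL1RL1 1.01 above untreated cells with the vehicle, all of which still passed. IL1R2, at 1.01 (edgeR adjusted p = 0.026), passed as well under these offsets, which made 5 genes. Leukocyte markers summed to 5.02 to 5.73 CPM with the vehicle, 7.58 to 10.7 with CKI and 8.84 to 10.5 in untreated cells, most of it CD14.

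**Figure D2:**
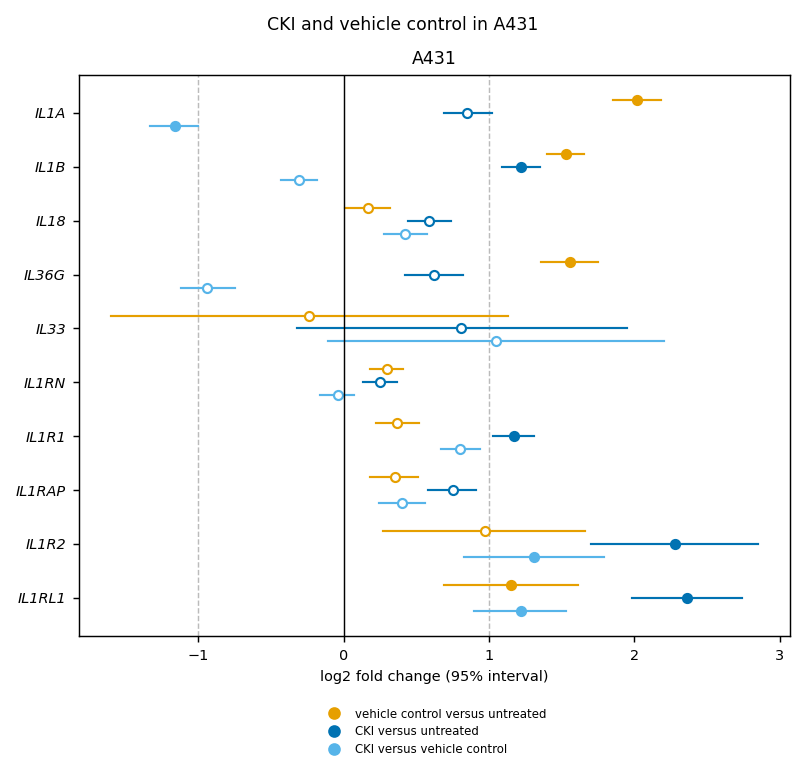
Log2 fold changes in A431 (x axis) of each gene for the vehicle control and CKI against untreated cells and for CKI against the vehicle control. Lines are 95% intervals, filled circles passed the adjusted p and fold thresholds, and dashed lines mark the fold threshold. IL1A was at 2.02 with the vehicle and -1.16 for CKI against the vehicle, comparisons that share the vehicle libraries with opposite sign.

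All 4 receptor genes had higher means with CKI than with the vehicle, as did IL18 and IL33 among the ligands. Of the 10 genes, 4 rose with CKI against untreated cells and none fell (22.4% of all tested genes passed in either direction): IL1B and the receptor genes IL1R1, IL1RL1 and IL1R2. Against the vehicle, IL1RL1 and IL1R2 rose and IL1A fell (19.5% of all tested genes). The median log2 difference of the 10 genes was 0.83 against untreated cells and 0.41 against the vehicle, beside 0.003 over all tested genes in both. Both comparisons share the CKI libraries, so their values are given side by side.

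IL1R1 was at 52.8, 54 and 54.1 CPM with CKI, 30.2, 28 and 27.7 with the vehicle and 21.4, 22.3 and 23.2 in untreated cells. The 3 groups were separate. IL1R1 rose by 1.17 ± 0.068 with CKI against untreated cells (edgeR adjusted p = 4e-13), a value of 0.96 and so below the fold threshold with the GC content and length offsets. Against the vehicle the log2 difference was 0.8 (edgeR adjusted p = 2.2e-10), and the vehicle was 0.37 above untreated cells, neither reaching the fold threshold.

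IL1RL1 was at 6.78, 4.79 and 5.57 CPM with CKI, 2.25, 2.59 and 2.02 with the vehicle, and 1.13, 0.824 and 1.18 in untreated cells. It rose by 2.36 ± 0.18 against untreated cells and by 1.22 ± 0.15 against the vehicle (edgeR adjusted p = 7.1e-11 and 2e-07). The vehicle itself raised it by 1.15 ± 0.22 (edgeR adjusted p = 0.00026), a value of 0.99 when the second untreated replicate was left out. IL1RL1 was thus called in all 3 of these comparisons.

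The decoy receptor gene IL1R2 had 54 to 87 reads per library with CKI, 18 to 36 with the vehicle and 7 to 17 in untreated cells. In CPM these were 4.43, 2.84 and 3.37, then 1.15, 1.83 and 0.981, then 1.02, 0.604 and 0.433. The CKI libraries lay above all others, whereas the vehicle and untreated libraries overlapped. The vehicle was 0.97 ± 0.34 above untreated cells on the log2 scale, just short of the fold threshold (edgeR adjusted p = 0.023), and leaving out single libraries gave 0.65 to 1.35, with the call made in 3 of 6 cases. IL1R2 rose by 2.28 ± 0.28 with CKI against untreated cells and by 1.31 ± 0.23 against the vehicle (edgeR adjusted p = 1.2e-07 and 3.2e-05). The co-receptor gene IL1RAP was at 58.8 ± 4.43 CPM with CKI, 41.6 ± 5.3 with the vehicle and 32.9 ± 1.05 in untreated cells, with log2 differences of 0.75 (CKI against untreated), 0.4 (CKI against the vehicle) and 0.35 (vehicle against untreated), none past the fold threshold.

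**Figure D3:**
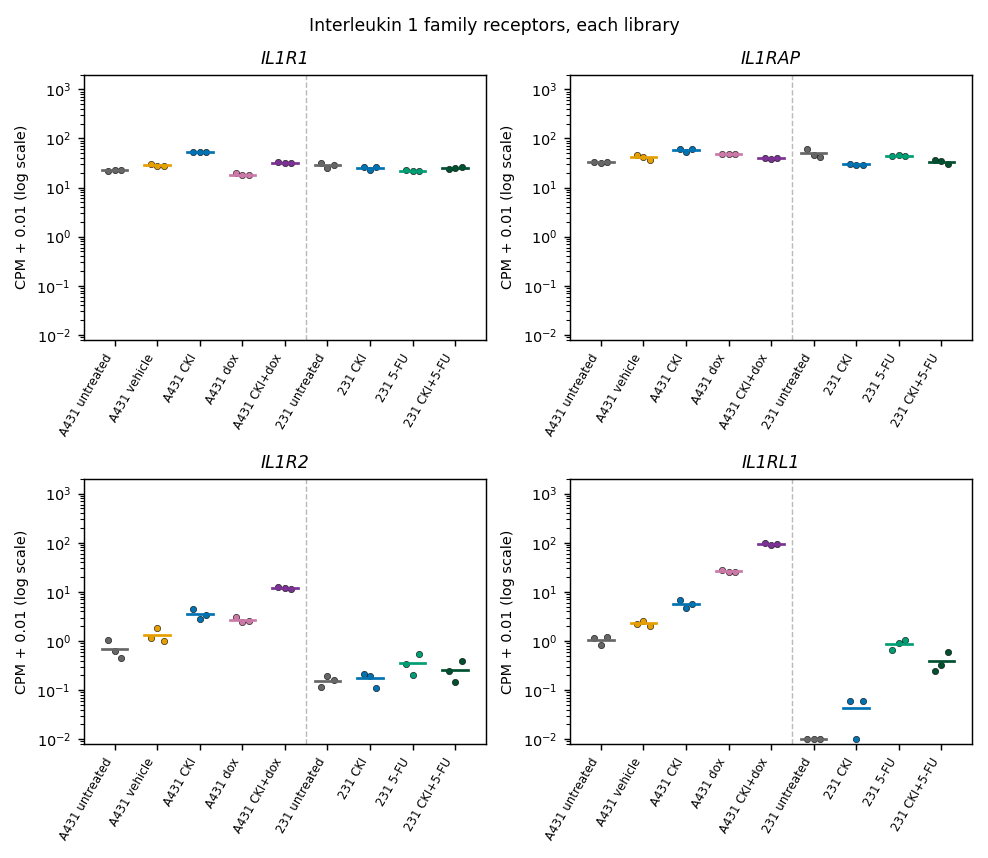
CPM of the 4 receptor genes in each of the 27 libraries, on a log axis after adding 0.01. Points are libraries, bars are group means, and 231 stands for MDA-MB-231. IL1RL1 spans 1.04 CPM in untreated A431 cells to 94.1 CPM with CKI plus doxorubicin, while IL1RAP keeps within 29.6 to 58.8 CPM in group means of both lines.

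Doxorubicin, a topoisomerase poison, lowered 3 ligand genes of A431 cells and raised IL33 and 2 receptor genes. IL1A, IL1B and IL18 fell and IL33, IL1RL1 and IL1R2 rose, 6 of 10 genes, where 37.3% of all tested genes passed in either direction. IL1A was at 75.5, 79.1 and 74.6 CPM and fell by 1.3 (SE 0.083, edgeR adjusted p = 1.8e-12). IL1B was at 43.4, 45.6 and 47.5 CPM and fell by 1.87 (SE 0.065, edgeR adjusted p = 3.5e-17). IL18 was at 16.3, 18.2 and 17.2 CPM, against 44.9, 48.1 and 50.5 in untreated cells, and fell by 1.5 (SE 0.081, edgeR adjusted p = 8.1e-14). For all 3 ligands every doxorubicin library lay below every untreated one.

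IL1RL1 reached 27.6, 25.3 and 25.3 CPM with doxorubicin, a rise of 4.62 ± 0.14 over untreated cells (edgeR adjusted p = 4.5e-18). Its ligand gene IL33 rose by 2.77 ± 0.41 (edgeR adjusted p = 1.9e-06), from 7, 2 and 2 reads per library to 28, 31 and 34, and stayed near 1.54 CPM. IL1R2 rose by 1.92 ± 0.29 (edgeR adjusted p = 2.3e-06). IL1R1 and IL1RAP differed by -0.3 and 0.51 on the log2 scale, short of the fold threshold (edgeR adjusted p = 0.00065 and 4.7e-06). The antagonist IL1RN, at 124, 123 and 130 CPM, differed by -0.62 from untreated cells on the log2 scale and did not reach the fold threshold. IL36G, unlike the other ligands of the ligand cluster, was 0.58 higher with doxorubicin than in untreated cells, and differed by -0.98 from the vehicle control (edgeR adjusted p = 9.5e-10). Set against the vehicle, doxorubicin differed by -3.31 for IL1A, -3.39 for IL1B, 3.47 for IL1RL1 and 0.96 for IL1R2, and IL1R2 no longer passed the fold threshold.

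Added to doxorubicin, CKI raised 6 of the 10 genes and lowered none (14.9% of all tested genes passed in either direction). No group held the vehicle with doxorubicin, so these rises cannot be told apart from an effect of the vehicle. Against untreated cells the vehicle alone had raised IL1A by 2.02, IL1B by 1.53 and IL1RL1 by 1.15. IL18, IL1RN and IL1R2 had not passed with it, at 0.17, 0.3 and 0.97. IL1A was at 186, 190 and 196 CPM, IL1B at 138, 139 and 148 CPM and IL18 at 61.8, 63.5 and 64.7 CPM with both agents. Against doxorubicin alone they rose by 1.34 ± 0.083, 1.66 ± 0.065 and 1.9 ± 0.079 (edgeR adjusted p = 3.2e-12, 1.1e-15 and 3.5e-15). IL1A thereby stood at 190 ± 5.08 CPM with both agents and at 184 ± 7.03 in untreated cells, groups that overlapped.

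IL1RL1 was highest with both agents, at 96.6, 89.6 and 95.9 CPM, having risen by 1.87 ± 0.078 over doxorubicin (edgeR adjusted p = 3.8e-15), and its group means spanned 90.5-fold over the A431 groups. IL1R2 was at 12.4, 11.9 and 11.5 CPM, a rise of 2.19 ± 0.17 (edgeR adjusted p = 1.3e-10). IL1RN, at 247, 257 and 252 CPM, rose by 1.02 ± 0.058 (edgeR adjusted p = 6.3e-13), a value of 0.99 under a filter of at least 10 counts in every library. IL1R1 was 0.81 and IL36G 0.63 higher than with doxorubicin, neither past the fold threshold. IL1RAP differed by -0.24 (edgeR adjusted p = 0.0093) and IL33 by -0.28 (95% interval -0.85 to 0.29), also short of it.

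Per length, IL1RL1 stood at 47.1 ± 1.93 CPM per kb with CKI plus doxorubicin, above IL36G at 44.4 ± 1.56 and below IL18 at 56.8 ± 1.31, whereas in untreated cells it was among the 3 lowest. Other marker lists moved in the same libraries. Leukocyte markers summed to 19.1 to 20.4 CPM with doxorubicin and 17 to 19.2 with both agents, against 8.84 to 10.5 in untreated cells, and CSF1R accounted for 8.81 ± 0.431 and 10.1 ± 0.534 CPM of these sums. Mesenchymal-like markers summed to 795 to 815 CPM with doxorubicin and 1210 to 1280 with both agents, against 285 to 312 in untreated cells. Their part in the receptor results was not tested.

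An interaction term tested whether doxorubicin altered the response to CKI, with untreated cells as the control and no vehicle group on the doxorubicin side. It passed for 1 of 10 genes, IL18, where 19.5% of all tested genes passed in either direction. The log2 effect of CKI on IL18 was 0.59 alone and 1.9 on top of doxorubicin, a difference of 1.31 ± 0.11 (edgeR adjusted p = 6.5e-10). IL1RAP was close to the fold threshold with an interaction of -0.99 ± 0.11 (edgeR adjusted p = 8.7e-08), and DESeq2 gave -1.03, which passed. For IL1R2 the interaction was -0.09 (95% interval -0.83 to 0.65), so a difference between the settings was not shown. For IL1RL1 the interaction was -0.49 (95% interval -0.95 to -0.04, edgeR adjusted p = 0.054), under the fold threshold, and its adjusted p depended on the processing. DESeq2 gave -0.54 (adjusted p = 0.048) and edgeR with the GC content and length offsets -0.55 (adjusted p = 0.03). With the vehicle group in place of untreated cells IL1RL1 gave 0.65 (edgeR adjusted p = 0.0029). IL1A, IL1B, IL1RN and IL1R1 gave 0.48, 0.44, 0.77 and -0.36, under the fold threshold, while IL36G gave 0.01 (95% interval -0.26 to 0.29) and IL33 -1.09 (95% interval -2.36 to 0.17). When the vehicle group replaced untreated cells, 5 genes passed, among them IL1A at 2.5 and IL1B at 1.97.

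**Figure D4:**
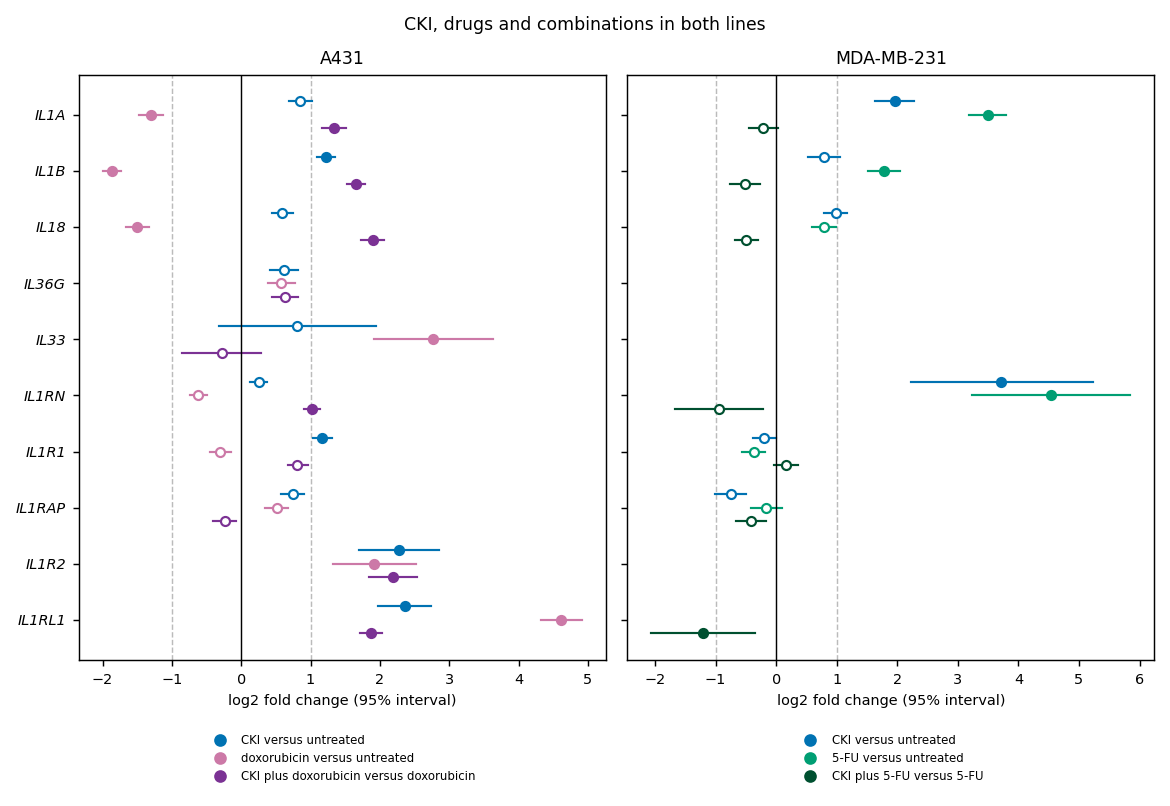
Log2 fold changes (x axis) of each gene in A431 (left) and MDA-MB-231 (right) for CKI alone, the drug alone and CKI added to the drug. Lines are 95% intervals, filled circles passed both thresholds, and genes not tested or with a group at 0 reads have no point. IL1A and IL1B fall with doxorubicin in A431, at -1.3 and -1.87, and rise with 5-FU in MDA-MB-231, at 3.49 and 1.78.

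In MDA-MB-231, IL33, IL36G and IL1R2 were too low to be tested: IL33 and IL36G had at most 2 reads in any of the 12 libraries and IL1R2 between 2 and 11. Of the 7 tested genes, IL1A and IL1RN rose with CKI against untreated cells and none fell (5.96% of all tested genes passed in either direction). IL1A was at 10.6, 12.8 and 11.4 CPM with CKI and 2.35, 3.41 and 3.1 in untreated cells, and rose by 1.96 ± 0.14 (edgeR adjusted p = 1.4e-06). IL1RN rose from 2 reads to 31 reads over the 3 libraries, a ratio of 15.5 with a 95% counting interval of 3.95 to 134 (edgeR adjusted p = 0.00089).

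IL18 was at 26.6, 25.9 and 26.2 CPM with CKI and 15.3, 11.9 and 12.4 in untreated cells, a log2 difference of 0.98 ± 0.088 just under the fold threshold (edgeR adjusted p = 6.7e-06). IL1B was 0.79 higher, at 23.1, 22.8 and 25.3 CPM against 10.6, 15.4 and 14.8. IL1RAP differed by -0.75 on the log2 scale (edgeR adjusted p = 0.00037) and IL1R1 differed by -0.2 (adjusted p = 0.096). IL1RL1 had 2 reads over the CKI libraries and none in untreated cells, too few for a fold. Without the first untreated replicate, the library that stood apart, the values were 1.82 for IL1A, 0.64 for IL1B, 1.1 for IL18, 4.1 for IL1RN and -0.59 for IL1RAP, and IL18 then passed as well, making 3 genes.

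5-FU, an inhibitor of thymidylate synthesis, raised 4 of the 7 genes and lowered none (13.3% of all tested genes passed in either direction). IL1A was at 30.5, 32 and 37.5 CPM, a rise of 3.49 ± 0.14 over untreated cells (edgeR adjusted p = 4.7e-09). IL1B was at 44.3, 46.4 and 49.9 CPM, a rise of 1.78 ± 0.12 (edgeR adjusted p = 2.2e-07). Both ligand genes were higher in every 5-FU library than in any library without 5-FU.

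IL1RN had 57 reads over the 3 libraries with 5-FU against 2 in untreated cells, a ratio of 27.4 with a 95% counting interval of 7.24 to 232 (edgeR adjusted p = 3.1e-05). IL1RL1 had 14, 19 and 22 reads per library with 5-FU and none in untreated cells, at least 17.6-fold higher (edgeR adjusted p = 7.2e-05). Its mean of 0.866 ± 0.205 CPM was below that of every A431 group. IL18 was 0.79 higher with 5-FU (edgeR adjusted p = 1.2e-05) and IL1R1 differed by -0.37 (edgeR adjusted p = 0.0034), neither past the fold threshold, and IL1RAP differed by -0.16 (adjusted p = 0.26). Without the first untreated replicate IL1A differed by 3.35, IL1B by 1.63, IL18 by 0.9 and IL1RN by 4.92.

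CKI added to 5-FU lowered 1 of the 7 genes, IL1RL1, and raised none (9.77% of all tested genes passed in either direction). IL1RL1 went from 0.644, 0.905 and 1.05 CPM to 0.235, 0.311 and 0.573, and fell by 1.2 (SE 0.39, edgeR adjusted p = 0.024), a call that was lost when any of 4 single libraries was left out. IL1A was at 27.7, 30.9 and 27.8 CPM with both agents, overlapping the 5-FU libraries, with a log2 difference of -0.21 (95% interval -0.45 to 0.03, edgeR adjusted p = 0.14). IL1B at 32, 31.2 and 35.3 CPM, IL18 at 16.4, 16.1 and 15.9 CPM and IL1RN at 6, 10 and 14 reads were all lower than with 5-FU alone, with log2 differences of -0.51, -0.49 and -0.94, without reaching the fold threshold. IL1RAP differed by -0.42 (edgeR adjusted p = 0.0095) and IL1R1 by 0.17 (adjusted p = 0.14).

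The interaction of CKI with 5-FU passed for 4 of the 7 genes, all negative, where 6.84% of all tested genes passed in either direction. For IL1A the log2 effect of CKI was 1.96 without 5-FU and -0.21 with it, an interaction of -2.17 ± 0.18 (edgeR adjusted p = 9.9e-06). IL1B gave -1.3 ± 0.17 and IL18 -1.47 ± 0.12 (edgeR adjusted p = 0.00017 and 9.8e-06). IL1RN gave -4.66 ± 0.77 (edgeR adjusted p = 0.00063), which rests on the 2 reads of the untreated group. IL1R1 gave 0.37 and IL1RAP 0.33, under the fold threshold, and IL1RL1 did not pass (edgeR adjusted p = 0.13). The same 4 genes in A431 had interactions of CKI with doxorubicin of 0.48, 0.44, 1.31 and 0.77, and the 2 sets of interactions, which differ in cell line and drug, were not tested against each other. Without the first untreated replicate the MDA-MB-231 values were -2.03, -1.15, -1.59 and -5.04.

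The response to CKI was compared between the lines as an interaction over their untreated and CKI libraries. It passed for 5 of the 9 tested genes (18.5% of all tested genes passed in either direction). IL1R1, IL1RAP and IL1R2 had effects that were higher in A431, by 1.38 ± 0.13, 1.51 ± 0.17 and 2.14 ± 0.75 (edgeR adjusted p = 2.1e-06, 9.7e-06 and 0.031). The log2 effect of CKI on IL1RAP was 0.75 in A431 and -0.75 in MDA-MB-231. IL1A and IL1RN had effects that were lower in A431, with interactions of -1.1 ± 0.15 and -3.44 ± 0.54 (edgeR adjusted p = 4.4e-05 and 9.2e-05). The value for IL1RN rests on the 2 reads of the untreated MDA-MB-231 group.

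For IL1B the effect of CKI was 0.43 higher in A431, short of the fold threshold (edgeR adjusted p = 0.031), and -1.09 once the vehicle stood as control for A431 (edgeR adjusted p = 0.00014). IL18 gave -0.38 (edgeR adjusted p = 0.034), also under it, while IL36G and IL1RL1 did not pass (adjusted p = 1 and 0.51) and have no reads in untreated MDA-MB-231 cells. The value for IL1A was -0.97 without the first untreated MDA-MB-231 replicate, -0.98 without the second untreated A431 replicate and -0.99 without the first A431 CKI replicate, each short of the fold threshold, and -3.11 with the vehicle as control. Without the first untreated MDA-MB-231 replicate those for IL1R1, IL1RAP, IL1R2 and IL1RN were 1.3, 1.33, 2.31 and -3.82. With the vehicle as A431 control those for IL1R1, IL1RAP and IL1RN were 1.01, 1.16 and -3.74, which still passed, IL1R1 only just. The value for IL1R2 rests on 9 to 10 reads per group in MDA-MB-231. It lost its call without the second or the third untreated replicate or the third CKI replicate of that line, and with the vehicle as A431 control, where it was 1.18 (edgeR adjusted p = 0.22).

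Genes of the surrounding pathway were read from 4 further lists, whose counts are set beside the share of all tested genes that passed in either direction. Among the 20 genes of the list of NF-kB and AP-1 targets that IL-1 induces, 18 were tested in A431. The vehicle raised 11 of them and lowered none against untreated cells, beside 2.54% of all tested genes, with a median log2 difference of 1.29. Fold changes of this comparison were related to GC content (Spearman's rho = -0.58), and the targets were not recomputed with the GC content and length offsets. Of the 11, CXCL8, a neutrophil chemokine, rose by 3.32 ± 0.098, TNFAIP3, an inhibitor of NF-kB signalling, by 3.34 ± 0.056 and NFKBIZ, a nuclear IκB protein, by 3.3 ± 0.091 (edgeR adjusted p = 3.1e-17, 1.2e-21 and 9.1e-18). CXCL8 was at 403, 364 and 309 CPM with the vehicle, 153, 139 and 157 with CKI and 33.5, 34.2 and 40.8 in untreated cells.

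CKI raised 7 and lowered 3 of these 18 targets against untreated cells (22.4% of all tested genes), and raised 1 and lowered 9 against the vehicle (19.5%). CXCL1, another neutrophil chemokine, fell in both, with log2 differences of -1.54 and -2.76 (SE 0.063 and 0.064), while PTGS2, the inducible cyclooxygenase, rose by 2.44 ± 0.13 against untreated cells (edgeR adjusted p = 5.8e-14). The medians of the 18 were 0.43 against untreated cells and -1 against the vehicle. Doxorubicin raised 6 and lowered 2 (37.3% of all tested genes), led by IL6 at 5.66 ± 0.11 (edgeR adjusted p = 1.2e-21), and CKI added to it raised 6 and lowered 1, IL6, with a log2 difference of -1.38 (SE 0.069), beside 14.9%. The interaction passed upwards for 5 and downwards for 5, beside 19.5%.

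In MDA-MB-231, 19 of the 20 targets were tested. 5-FU raised 10 and lowered none (median 1, beside 13.3% of all tested genes), and CKI added to 5-FU raised none and lowered 10 (median -1.14, beside 9.77%). CKI alone raised 1, MMP1, a collagenase, by 2.94 ± 0.066, and lowered 4 (5.96% of all tested genes). CSF3, which encodes a granulocyte growth factor, was at 48.4, 52.9 and 49.6 CPM with 5-FU and 4.04, 3.38 and 4.15 with both agents, and fell by 3.7 (SE 0.14, edgeR adjusted p = 6.2e-09). CXCL8 fell by 1.76 (SE 0.081) in the same comparison. The interaction of CKI with 5-FU passed for 6 of the 19, all negative (6.84%). Between the lines the interaction with CKI was higher in A431 for 9 of 19 and lower for 2 (18.5%), and 10 of 19 were lower in untreated A431 than in untreated MDA-MB-231, with 4 higher (42.9%).

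Of 12 other ligands and receptors of the family, 9 were tested in A431. CKI raised 3 against untreated cells, among them IL36RN, the antagonist of the IL-36 receptor, by 1.22 ± 0.15 (edgeR adjusted p = 1.5e-07), and against the vehicle it raised 1, IL1RAPL1, and lowered 1, IL36B, which had no read in the CKI libraries and at most 0.203 CPM with the vehicle. The shares of all tested genes were 22.4% and 19.5%. The vehicle changed none of the 9 (2.54%). IL36RN went on to 23.5, 26.9 and 25.6 CPM with doxorubicin and 72.8, 68.4 and 71.8 with both agents. SIGIRR, an inhibitory receptor of the family, fell by 1.84 with doxorubicin (SE 0.097, edgeR adjusted p = 6.1e-14). In all, doxorubicin raised 4 of the 9 and lowered 1 (37.3% of all tested genes), CKI added to it raised 4 and lowered none (14.9%), and the interaction passed for none (19.5%).

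In MDA-MB-231, where 4 of the 12 were tested, SIGIRR fell in 3 comparisons, with log2 differences of -1.3 (SE 0.15) with CKI, -1.08 (SE 0.14) with 5-FU and -1.15 (SE 0.16) when CKI was added to 5-FU (edgeR adjusted p = 3.5e-05, 4.3e-05 and 0.00011). IL1RL2, the IL-36 receptor, rose with 5-FU by 1.79 ± 0.3 and had a negative interaction. The IL-18 receptor chain IL18R1 was at 5.76 ± 0.566 CPM in untreated A431 and 0.116 ± 0.106 CPM in untreated MDA-MB-231, and the second chain IL18RAP had no read in any of the 12 MDA-MB-231 libraries. Between the untreated lines 5 of 7 tested genes were higher in A431 and 1 lower (42.9% of all tested genes), and the interaction of the line with CKI passed upwards for 2 and downwards for 1 (18.5%).

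Of receptor-proximal signalling, 16 genes were tested. CKI raised 3 in A431 against untreated cells (22.4% of all tested genes), of which TAB3, a partner of the kinase TAK1, rose by 2.07 ± 0.061, and raised 2 and lowered 1 against the vehicle (19.5%), while the vehicle changed none (2.54%). IRAK3, an inhibitory member of the IRAK family, fell in 4 comparisons, with log2 differences of -1.28 for CKI against the vehicle, -1.18 with doxorubicin, -1.17 with CKI in MDA-MB-231 and -1.11 with CKI added to 5-FU. Doxorubicin raised 3 and lowered 1, a smaller share than the 37.3% of all tested genes, and MYD88, the adaptor of the receptors, rose by 1.15 ± 0.075 (edgeR adjusted p = 2.5e-12). CKI added to doxorubicin raised 1 and lowered none (14.9%). The interaction with doxorubicin passed upwards for 1 and downwards for 2 (19.5%). In MDA-MB-231, CKI lowered 1 (5.96%), 5-FU raised 2 (13.3%) and CKI added to 5-FU lowered 1 (9.77%), with no interaction past the thresholds (6.84%). The interaction of the line with CKI was higher in A431 for 4 (18.5%), and 2 were lower in untreated A431 (42.9%).

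Among 14 tested inflammasome and processing genes in A431, CKI raised 1 against untreated cells (22.4% of all tested genes) and changed none against the vehicle (19.5%), and the vehicle raised 1 (2.54%). That gene was NLRP3, an inflammasome sensor, at 0.674 ± 0.129 CPM with CKI and 0.67 ± 0.0539 with the vehicle against 0.257 ± 0.0971 in untreated cells. Doxorubicin raised 1 and lowered 3, a smaller share than the 37.3% of all tested genes, with log2 differences of -2.06 (SE 0.099) for the inflammasome adaptor PYCARD and -1.78 (SE 0.07) for GSDMD, the pore-forming gasdermin. CKI added to doxorubicin raised 5 and lowered none, PYCARD by 1.07 ± 0.1 and CASP4 by 1.1 ± 0.064, and the interaction passed upwards for 2 (14.9% and 19.5%). CASP1, which cleaves the IL-1β and IL-18 precursors, was at 31.8, 35.6 and 35.8 CPM in untreated A431 cells and 35.7, 34 and 31.5 with CKI. In MDA-MB-231, where 13 were tested, neither CKI nor 5-FU alone changed any, CKI added to 5-FU raised 1 and lowered 1, and no interaction passed (5.96%, 13.3%, 9.77% and 6.84%). Between the untreated lines 6 were higher in A431 and 2 lower (42.9%), and the interaction of the line with CKI passed for 1 (18.5%).

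**Figure D5:**
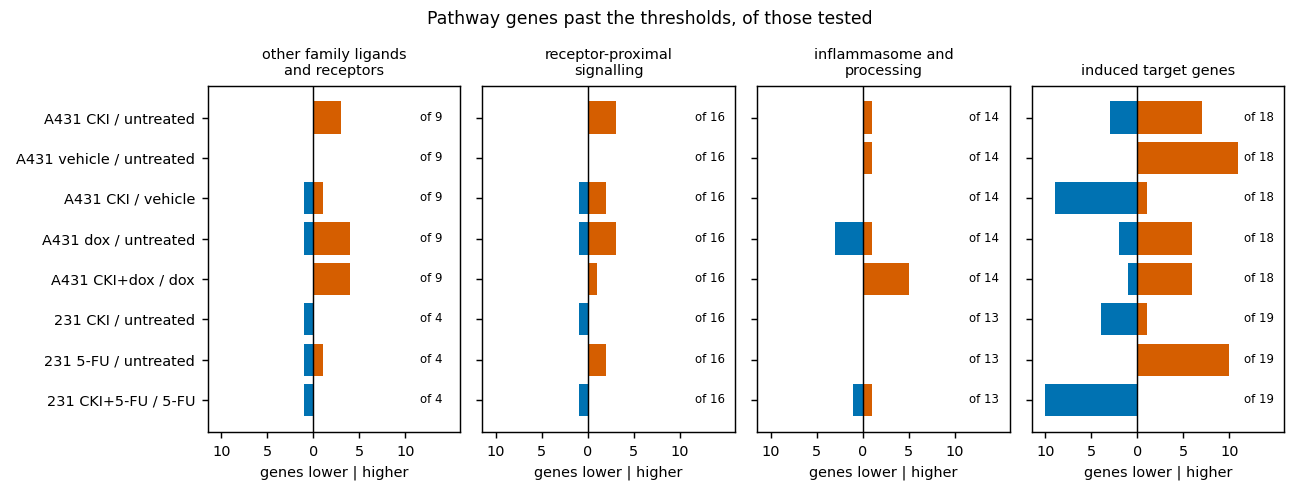
Number of genes of each pathway list (x axis) that passed the thresholds upwards (orange, right) or downwards (blue, left) in 8 comparisons, with the number tested printed beside each bar. Among induced target genes, 11 of 18 rose with the A431 vehicle and 10 of 19 fell when CKI was added to 5-FU in MDA-MB-231.

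The 2 IL-1 ligand genes followed each other across libraries. Pearson's r between the log2 CPM of IL1A and IL1B was 0.96 over the 15 A431 libraries and 0.96 over the 12 MDA-MB-231 libraries, where the points are groups of 3 replicates that share treatment and depth. In A431, IL1RL1 and IL1R2 had an r of 0.91 and IL1RL1 and IL33 of 0.89, whereas IL1A and IL1RL1 gave -0.48. In MDA-MB-231, IL1R1 had an r of -0.8 to IL1A, -0.85 to IL1B and -0.52 to IL18. Its group means spanned only 1.29-fold there, and it passed the thresholds in no comparison within that line. The genes most like IL1A in A431 were NFKBIA, ETS2, TAF1, CILK1 and TASP1 (r = 0.966 to 0.979), and those most like IL1B were DNAJC10, ERO1A, EMP1, NCK1 and DCBLD2 (0.984 to 0.988). In MDA-MB-231 they were SLC39A14, ZNF398, DCAF16, GNL1 and JMJD6 for IL1A (0.989 to 0.994), and PKIB, UBE2J2, HBEGF, CSRNP2 and RUNDC1 for IL1B (0.982 to 0.987). None of the 10 nearest genes of A431 was among the 10 of MDA-MB-231. Lists so short need not share a gene, and a difference between the lines was not tested.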

How the data were processed

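RNA was sequenced from 27 cell line libraries. The authors deposited raw counts per gene (Entrez IDs); the submitters' processing notes name Trim Galore 0.3.7, STAR 2.5.3a, hg19 and edgeR. The counting tool, its annotation and its use of strand are not given in the sources used here. Symbols came from RefSeq (GRCh38.p14) for 24422 of 24566 rows, and exon length and GC content from a GRCh37 annotation for 99.5% of rows.

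Counts were analysed in R 4.3.3 with edgeR 4.0.16 (limma 3.58.1): filterByExpr, TMM and the quasi-likelihood test with Benjamini-Hochberg adjustment, in 1 fit over the 15 A431 libraries (15881 genes), 1 over the 12 MDA-MB-231 libraries (13999 genes) and 1 over the 12 libraries, from both lines, of untreated or CKI-treated cells (14848 genes). A call needed an adjusted p below 0.05 and an absolute log2 fold change above 1, the study's thresholds. Of the 10 members, 10, 7 and 9 passed the filter in these fits. Correlations used log2 CPM with a prior count of 2. The procedure was tested on simulated data. Folds against a group at 0 reads used a floor of 3 reads over the group, and intervals and floors cover counting error only.

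The members, the gene lists and the tests were chosen with earlier results of these data known. All members that were tested were named in every comparison. From each further list up to 3 called genes in each direction, by size of log2 fold change, could be named, with CASP1, IL18R1, IL18RAP and the marker genes added as descriptions, and for likeness the 5 genes with the highest Pearson's r to IL1A and to IL1B in each line. IKBKG had no row in the table used here. Replicate numbers are shared between groups, but same-numbered libraries did not deviate together (correlations of -0.24 to 0.12, and no comparison with every pair above 0.1), so no block was used. Alternatives were DESeq2 1.42.0, RLE factors, no filter or at least 10 counts in every library, no fold threshold, the compared groups alone, a replicate block, GC content and length offsets (lowess span 0.3), the vehicle as A431 control, and leaving out each library.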

Additional observations from a re-analysis of the deposited data

Results flagged for a closer look

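Interaction terms in edgeR passed for 1 of 10 genes for CKI with doxorubicin, 4 of 7 for CKI with 5-FU and 5 of 9 for CKI between the lines, beside 19.5%, 6.84% and 18.5% of all tested genes. In A431, the effect of CKI on IL18 was larger with doxorubicin than without it by 1.31 on the log2 scale (adjusted p = 6.5e-10). In MDA-MB-231, the effect of CKI was lower with 5-FU than without it, with interactions of -2.17 for IL1A (adjusted p = 9.9e-06), -1.3 for IL1B (0.00017), -1.47 for IL18 (9.8e-06) and -4.66 for IL1RN (0.00063). Between the lines, the effect of CKI in A431 less that in MDA-MB-231 was -1.1 for IL1A (adjusted p = 4.4e-05), -3.44 for IL1RN (9.2e-05), 1.38 for IL1R1 (2.1e-06), 1.51 for IL1RAP (9.7e-06) and 2.14 for IL1R2 (0.031). Both IL1RN values rest on 2 reads in untreated MDA-MB-231 cells. IL1R2 had at most 11 reads in any MDA-MB-231 library, and with the vehicle as A431 control it was 1.18 (edgeR adjusted p = 0.22). Without the first untreated MDA-MB-231 replicate IL1A was -0.97, short of the fold threshold.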

How the results depend on the processing

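Of 1597 fold changes of members recomputed under an alternative, 1489 kept their direction and their side of the threshold, 19 lost a call, 64 gained one and 25 changed sign. Of the gains, 40 came from dropping the fold threshold, which can only add calls. Fold changes against a group at 0 reads were not among the 1597. With the replicate block all 92 fold changes were kept, so 4 members were still called for A431 CKI against untreated cells. Counts of called members rose in every comparison without the fold threshold. In A431 they were 9 (CKI against untreated), 8 (CKI against the vehicle) and 8 (vehicle against untreated). They were 10 for doxorubicin, 9 for CKI added to doxorubicin and 6 for CKI by doxorubicin. In MDA-MB-231 they were 5 (CKI), 6 (5-FU), 5 (CKI added to 5-FU) and 5 (CKI by 5-FU). The line by CKI interaction had 7 and the untreated lines 9. The CKI by doxorubicin count was 2 with DESeq2, with RLE factors and with at least 10 counts in every library, 5 with the vehicle as control, and 1 to 2 when single libraries were left out. With at least 10 counts, which leaves 5 members in the fits with MDA-MB-231, the counts were 1 for CKI, 2 for 5-FU, 0 for CKI added to 5-FU, 3 for the line by CKI interaction and 3 between untreated lines. The MDA-MB-231 CKI count was 1 in the compared groups alone, which also left 5 members, and that for CKI added to 5-FU was 0 to 2 when single libraries were left out.

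Changes of sign were mostly of values near 0. IL1RN in CKI against the vehicle was 0 with DESeq2 and RLE factors, 0.01 with at least 10 counts and 0.13 with GC content and length offsets, with or without the replicate block. The CKI by doxorubicin interaction of IL36G was -0.03 with DESeq2, -0.02 with RLE factors, -0.06 with at least 10 counts and -0.15 with the offsets, with or without the block, and reached -0.04 to 0.06 when single libraries were left out; that of IL1R2 ran from -0.46 to 0.13. IL33 in the vehicle against untreated cells ran from -0.57 to 0.61, and was 0.61 without the first untreated replicate. IL1RAP with 5-FU ran from -0.26 to 0.01, the latter without the first untreated MDA-MB-231 replicate. With the vehicle as the A431 control, IL1R2 lost its calls with doxorubicin (0.96) and in the line by CKI interaction (1.18), IL36G with doxorubicin was -0.98, the CKI by doxorubicin interactions were 0.01 for IL1R1, 0.65 for IL1RL1 and 0.87 for IL1R2, and the line by CKI interaction of IL1B was -1.09. Apart from the vehicle, whose use changes the control group, and the fits with fewer members tested, the cause was not tested. In MDA-MB-231, depth limits IL33, IL36G, IL1R2, IL1RN and IL1RL1, whose counts are too low to show small differences.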
